A study of Mus musculus with 4 samples.

Results

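The Pax family of transcription factors was examined in 4 microarray profiles of mouse embryo tissue. The members were the probe sets, the groups of short probes by which the array reads a transcript, whose only gene symbol in the platform annotation was Pax1, Pax2, Pax3, Pax5, Pax6, Pax7, Pax8 or Pax9. This rule used no measured value, but the family was chosen with earlier results of these data known. It gave 19 probe sets of 7 genes out of 45037 probe sets other than controls, and no probe set was listed under Pax2 alone, so Pax2 is not analysed here. The arrays comprised 2 samples of foregut endoderm, taken at the anterior intestinal portal, and 2 samples that joined heart mesoderm to the mesoderm and ectoderm of the head. All came from ARC/s embryos of 4 to 5 somites at embryonic day 8.5, with no mutation or treatment named, and each sample pooled 15 to 20 pieces of tissue. Samples numbered 1 were separated by hand, and those numbered 2 after trypsin and pancreatin digestion, so experiment and dissection cannot be told apart. One description field of foregut endoderm 2 calls it ectoderm, but all its other labels name foregut endoderm, and they were followed.

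Pax proteins bind DNA through a paired domain, and some carry a complete or partial homeodomain as well. The mammalian genes fall into subfamilies by structure: Pax1 with Pax9, Pax3 with Pax7, Pax2 with Pax5 and Pax8, and Pax4 with Pax6. Around the time when the gut tube folds in, Pax1 and Pax9 are known from the pharyngeal endoderm, Pax3 and Pax7 from the dorsal neural folds and neural crest, and Pax6 from the optic area, forebrain and hindbrain.

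Values are log2 intensities. Each array has a lowest value (2.25 and 2.27 in foregut endoderm 1 and 2, 2.28 in both mesoderm and ectoderm samples), and a value within 0.1 of it is called the floor. Labels were checked on marker genes first. Each of the 7 definitive endoderm markers lay 2-fold or more above mesoderm and ectoderm in each of the 2 experiments. The summed intensity of 7 heart muscle markers was 10103 and 335 in foregut endoderm 1 and 2, against 85.8 and 87766 in mesoderm and ectoderm 1 and 2. The array labelled mesoderm and ectoderm 1 thus held little heart muscle signal, and foregut endoderm 1 held more of it. The heart regulator Nkx2-5, a small part of these sums, was higher in foregut endoderm in both experiments. It read 5.50 and 7.66 in foregut endoderm 1 and 2, against 3.71 and 6.91 in mesoderm and ectoderm 1 and 2. The sum of 6 endothelial markers was 542 and 57.6 in foregut endoderm 1 and 2, against 85.1 and 374 in mesoderm and ectoderm 1 and 2. For 5 embryonic red cell markers it was 2384 and 209, against 410 and 2444. Both sets were thus higher in foregut endoderm in experiment 1 and lower in experiment 2. Pax results are therefore also given with each array left out. In pooled tissue, fewer cells of a type and less RNA per cell cannot be told apart.

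Of the 19 Pax probe sets, 3 lay higher by 2-fold or more in foregut endoderm in each experiment, as did 1.28% of all probe sets on the array. Another 4 were at least 2-fold lower in both, against 0.373% of all probe sets. Tissues that merely did not overlap were common, as 6.74% of all probe sets had both foregut endoderm arrays on top and 50.3% had them at the bottom, many of them at the floor, whose order follows the arrays' lowest values. The 3 higher ones belonged to Pax9 and Pax1, and the 4 lower ones to Pax3, Pax6 and Pax7. The remaining 12 included 7 that lay at the floor on all 4 arrays, a state shared by 38.3% of all probe sets. Each array was also left out in turn, and the remaining array of its tissue was set against both arrays of the other tissue. This count no longer keeps the experiments apart. In it, 3 or 4 were higher and 4 were lower. The fourth entered without foregut endoderm 1 and was Pax9 1421247_at.

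**Figure D1:**
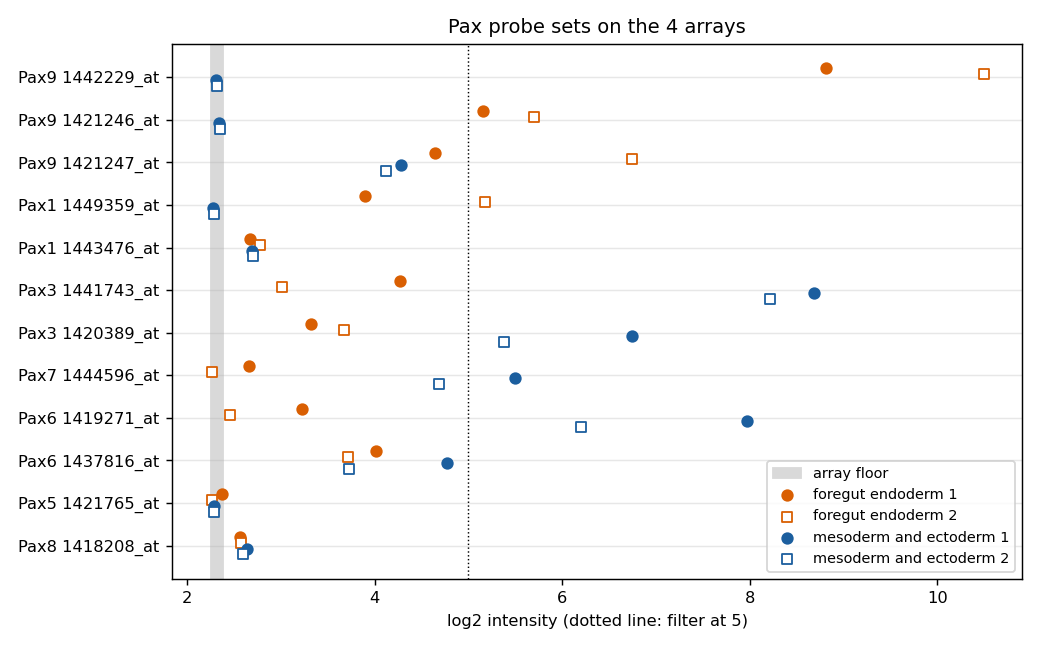
Log2 intensity (horizontal axis) of the 12 Pax probe sets that left the floor on at least 1 array, 1 row per probe set, with 1 point per array. Foregut endoderm is orange and mesoderm and ectoderm blue, circles are experiment 1 and squares experiment 2, and the grey band marks the floor. Pax9 1442229_at reached 8.81 and 10.50 in foregut endoderm with both other arrays at the floor, and Pax3 1441743_at reached 8.68 and 8.22 in mesoderm and ectoderm.

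Pax9 encodes a factor that the mouse needs for its thymus, parathyroid glands and teeth. Its probe set 1442229_at had log2 intensities of 8.81 and 10.50 in foregut endoderm 1 and 2, against 2.31 and 2.32 in mesoderm and ectoderm 1 and 2. In linear intensity these are 449 and 1446 against 4.96 and 4.98. Both foregut endoderm arrays were far above the others, foregut endoderm 2 was the brightest, and the mesoderm and ectoderm arrays both lay at the floor and have no order. The difference was 6.50 log2 units in experiment 1 and 8.18 in experiment 2, so this probe set was at least 90.5-fold and at least 290-fold higher in foregut endoderm.

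The other probe sets of Pax9 gave smaller differences. Probe set 1421246_at read 5.15 and 5.70 in foregut endoderm 1 and 2, against 2.34 and 2.35 at the floor in mesoderm and ectoderm, at least 7.01-fold higher in experiment 1 and at least 10.2-fold in experiment 2. Probe set 1421247_at read 4.64 and 6.74 in foregut endoderm 1 and 2, against 4.29 and 4.12 in mesoderm and ectoderm 1 and 2. Only foregut endoderm 2 stood clear there, with differences of 0.36 and 2.62. The mean difference of 1.49 was 0.44 without foregut endoderm 2 and 2.54 without foregut endoderm 1. The platform annotation ties 1421246_at and 1421247_at to the same sequence record and 1442229_at to another one. In each experiment all 3 read higher in foregut endoderm, and they ranged from 1.49 to 7.34 in mean difference.

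Pax1, the closest relative of Pax9, acts in the pharyngeal pouches and in the sclerotome that forms vertebrae. Its probe set 1449359_at had log2 intensities of 3.90 and 5.18 in foregut endoderm 1 and 2, against 2.28 and 2.28 at the floor in mesoderm and ectoderm. Foregut endoderm 2 was again the higher of the pair, and the tissues did not overlap. Pax1 was at least 3.07-fold higher in experiment 1 and at least 7.43-fold in experiment 2, but only 1 array lay above a log2 of 5. The second Pax1 probe set, 1443476_at, read 2.67 and 2.78 in foregut endoderm 1 and 2, against 2.69 and 2.71 in mesoderm and ectoderm 1 and 2, a dim level with differences of -0.02 and 0.08. The 2 Pax1 probe sets therefore differ in what they show.

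Pax1 and Pax9 are also genes of somites in the mouse, so somite markers were read beside them. None of the 8 somite and paraxial mesoderm markers had a log2 above 5 on 2 arrays. Their summed intensity was 201 and 40.6 in foregut endoderm 1 and 2, against 44.3 and 59.3 in mesoderm and ectoderm 1 and 2. Most of the sum in foregut endoderm 1 came from Foxc2, at 121. Tbx18 (25.0), Tcf15 (19.9), Meox2 (11.2) and Meox1 (9.79) were also brightest on that array. Uncx, Nkx3-2 and Myf5 were at the floor on all 4 arrays. The part of somite cells in the Pax1 and Pax9 values was not tested.

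The promoters of this pair are shown because both genes differed in the same direction. The windows run from 250 bases before to 50 after the gene start in RefSeq (build GRCm38.p6), on the plus strand, at chr12:56695221-56695520 for Pax9 and chr2:147364744-147365043 for Pax1. Capitals mark matches on either strand to 7 motifs: the forkhead core TGTTTAC, its common variant TGTTTGC, the homeodomain core TAATTA, the bicoid-type core GGATTA, the T-box core GGTGTGA, the CCAAT box CCAAT and the GC box GGGCGG.
Pax9: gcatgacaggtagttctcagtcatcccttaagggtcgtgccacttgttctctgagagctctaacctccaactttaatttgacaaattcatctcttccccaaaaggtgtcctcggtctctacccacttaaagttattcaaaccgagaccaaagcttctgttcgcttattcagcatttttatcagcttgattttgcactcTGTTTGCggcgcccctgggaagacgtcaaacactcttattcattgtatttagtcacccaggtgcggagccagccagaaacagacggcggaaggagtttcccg
Pax1: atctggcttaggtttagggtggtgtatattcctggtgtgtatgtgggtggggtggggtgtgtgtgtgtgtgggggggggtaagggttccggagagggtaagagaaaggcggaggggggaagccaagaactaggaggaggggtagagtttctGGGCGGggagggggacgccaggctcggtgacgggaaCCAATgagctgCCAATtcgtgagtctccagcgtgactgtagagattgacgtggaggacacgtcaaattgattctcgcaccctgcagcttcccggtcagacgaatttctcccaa
Pax9 held 1 match, to TGTTTGC, which starts at position -52 relative to the gene start and is found in 5.07% of the 32851 promoters in the table. Pax1 held 2 CCAAT matches, a motif in 37.4% of promoters, and 1 GC box, in 35.7%. The windows had no motif of the 7 in common. CpG dinucleotides numbered 11 in Pax9 and 13 in Pax1, against a median of 7.

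On the other side stood Pax3, which acts in the dorsal neural tube, the neural crest and the precursors of limb muscle. Probe set 1441743_at had log2 intensities of 4.27 and 3.01 in foregut endoderm 1 and 2, against 8.68 and 8.22 in mesoderm and ectoderm 1 and 2. All arrays lay above the floor, and the tissues were far apart. The difference was -4.41 in experiment 1 and -5.21 in experiment 2, which is 21.3-fold and 37.0-fold lower in foregut endoderm.

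A second Pax3 probe set, 1420389_at, read 3.32 and 3.67 in foregut endoderm 1 and 2, against 6.75 and 5.38 in mesoderm and ectoderm 1 and 2. Its difference was -3.43 in experiment 1 and -1.71 in experiment 2. The order of the experiments was thus the opposite of that in 1441743_at. The third, 1430335_a_at, was at the floor on all 4 arrays and gives no information on the tissues. Summed over 6 neural crest markers, intensity was 2074 and 426 in foregut endoderm 1 and 2, against 2629 and 2115 in mesoderm and ectoderm 1 and 2. The foregut endoderm arrays were furthest apart in Snai2 (log2 9.94 and 7.59), Ets1 (9.20 and 5.94) and Tfap2a (8.29 and 4.78). They differed less in Sox9 (7.06 and 6.56), Sox10 (5.70 and 5.48) and Foxd3 (2.401 and 2.415). Foregut endoderm 1, the endoderm array with the larger sum, was also the higher one for Pax3 1441743_at, although not for 1420389_at. The part of crest cells in these values was not tested.

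Pax7, the relative of Pax3 in dorsal neural tube, cranial crest and muscle stem cells, had 1 of 2 probe sets above the floor. Probe set 1444596_at read 2.66 in foregut endoderm 1 and 2.27, the floor, in foregut endoderm 2, against 5.50 and 4.69 in mesoderm and ectoderm 1 and 2. The tissues did not overlap, and the brighter array of each tissue was that of experiment 1. Differences were -2.83 and -2.42, or at least 7.13-fold lower in experiment 1 and at least 5.35-fold lower in experiment 2, since foregut endoderm 1 too was dim, 0.41 above that array's lowest value. The other Pax7 probe set, 1452510_at, stayed at the floor throughout.

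Pax6 directs eye and forebrain development and later that of the endocrine pancreas. Its probe set 1419271_at had log2 intensities of 3.22 and 2.46 in foregut endoderm 1 and 2, against 7.97 and 6.20 in mesoderm and ectoderm 1 and 2. Mesoderm and ectoderm 1, the array with little heart signal, was the highest. The part of tissue make-up in this order was not tested. The difference was -4.75 in experiment 1 and -3.73 in experiment 2, which is 26.8-fold lower in foregut endoderm in experiment 1 and at least 13.3-fold lower in experiment 2, as foregut endoderm 2 lay only 0.195 above that array's lowest value.

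The remaining 4 Pax6 probe sets carried little or none of this difference. Probe set 1437816_at read 4.02 and 3.71 in foregut endoderm 1 and 2, against 4.77 and 3.73 in mesoderm and ectoderm 1 and 2. Only mesoderm and ectoderm 1 stood out, and the mean difference of -0.38 became 0.14 without that array and -0.91 without mesoderm and ectoderm 2. The 3 others, 1425960_s_at, 1452526_a_at and 1456342_at, were at the floor on all 4 arrays. The level of Pax6 in these tissues thus rests on 1 probe set of 5.

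Promoter windows of Pax6 and Pax7 are shown for contrast with the Pax9 and Pax1 windows, from the same RefSeq table and with the same capitals, and that of Pax3 is not shown. They lie at chr2:105668646-105668945 on the plus strand for Pax6, the first of 2 starts in the table, and at chr4:139832919-139833218 on the minus strand for Pax7.
Pax6: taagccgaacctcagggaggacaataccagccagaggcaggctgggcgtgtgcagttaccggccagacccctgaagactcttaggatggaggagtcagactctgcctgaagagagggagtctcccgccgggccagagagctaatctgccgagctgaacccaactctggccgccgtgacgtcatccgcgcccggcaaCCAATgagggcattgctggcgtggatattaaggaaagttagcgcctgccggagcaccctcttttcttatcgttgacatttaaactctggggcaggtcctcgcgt
Pax7: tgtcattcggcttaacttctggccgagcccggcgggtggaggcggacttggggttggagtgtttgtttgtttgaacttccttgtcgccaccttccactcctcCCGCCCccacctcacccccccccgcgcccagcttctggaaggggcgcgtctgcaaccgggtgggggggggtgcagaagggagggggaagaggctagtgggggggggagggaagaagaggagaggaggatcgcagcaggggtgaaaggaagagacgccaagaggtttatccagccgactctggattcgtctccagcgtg
Pax6 held 1 CCAAT match and Pax7 held 1 GC box, both motifs that are common among promoters (37.4% and 35.7%). CpG dinucleotides numbered 18 in Pax6 and 17 in Pax7. None of these 4 windows held the core TGTTTAC or the homeodomain, bicoid-type or T-box core, which says only that these letters are not in them.

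Pax5 and Pax8 were dim on every array. Pax5, a factor of the midbrain-hindbrain boundary and of B cells, had 1421765_at at 2.37 and 2.27 in foregut endoderm 1 and 2, against 2.28 and 2.28 in mesoderm and ectoderm, and 1454401_at at the floor. Pax8, a factor of thyroid, kidney and ear, had 1418208_at at 2.56 and 2.58 in foregut endoderm 1 and 2, against 2.64 and 2.60 in mesoderm and ectoderm 1 and 2, and 1446561_at at the floor. Neither gene showed a tissue difference larger than 0.05 log2 units in its mean, and a transcript below what these probe sets detect cannot be told from none.

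**Figure D2:**
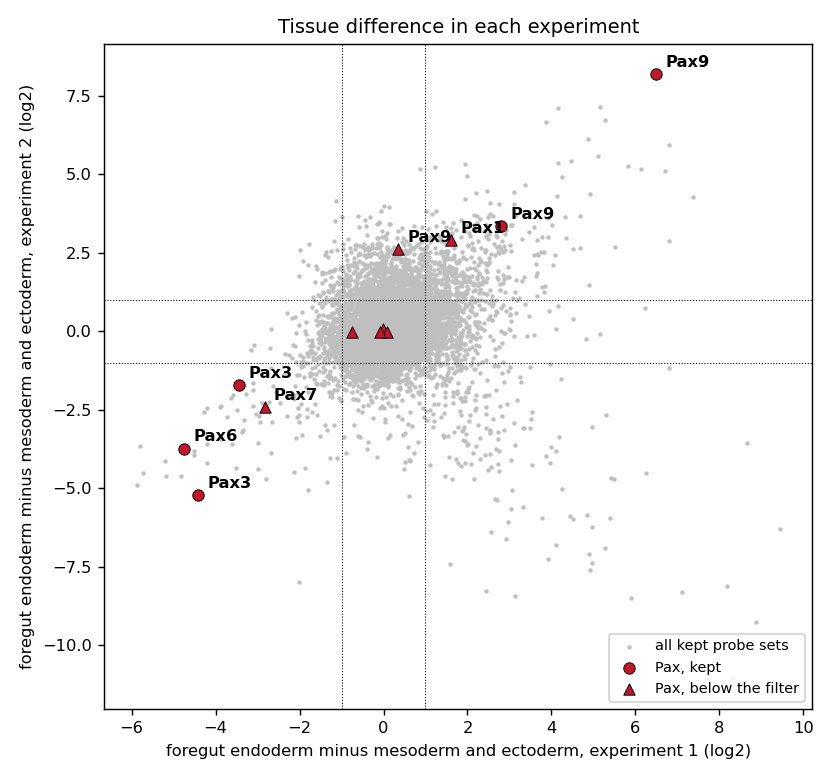
Foregut endoderm minus mesoderm and ectoderm in experiment 1 (horizontal axis, log2) and experiment 2 (vertical axis, log2) for 13288 kept probe sets (grey) and for the 12 Pax probe sets that left the floor (red; circles kept, triangles below the filter). Dotted lines mark 2-fold. Pax9 1442229_at lies at 6.50 and 8.18, and the Pax3, Pax6 and Pax7 points past the dotted lines lie at the lower left.

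Tissue differences were tested with limma over the 13288 probe sets that had a log2 above 5 on at least 2 arrays. This filter kept 5 Pax probe sets, 2 each of Pax9 and Pax3 and 1 of Pax6. They entered through the tissue in which they are high, so their number is no evidence of a difference. The estimates were 7.34 ± 0.69 (SE) for Pax9 1442229_at, 3.08 ± 0.36 for Pax9 1421246_at, -4.81 ± 0.58 for Pax3 1441743_at, -2.57 ± 0.60 for Pax3 1420389_at and -4.24 ± 0.77 for Pax6 1419271_at.

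None of the 5 passed after Benjamini-Hochberg adjustment. In limma, 0.0% of the 13288 probe sets had an adjusted p under 0.05 and 3.76% had an unadjusted p under 0.05. The limma adjusted p of the 5 Pax probe sets ran from 0.724 to 0.981, and from 0.351 to 0.484 with the replicate number as a block, where 9.98% of all kept probe sets had an unadjusted p under 0.05. Without a filter, 7 of the 19 Pax probe sets had an unadjusted p under 0.05 in limma, against 2.66% of 45037, and 0 passed after adjustment, the lowest adjusted p being 0.467. In that fit Pax1 1449359_at was at 2.26 ± 0.57 (SE) and Pax7 1444596_at at -2.63 ± 0.40. An exact permutation test of 2 arrays against 2 cannot give a two-sided p below 0.333, and missing the threshold is no evidence of equal levels.

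Differences between experiments were fitted for the 5 kept probe sets as well. These passed the filter through the tissue in which they are high, so the 2 kinds of difference cannot be compared in size. As second minus first, in a fit that includes tissue, Pax6 1419271_at was at -1.27 ± 0.37 (SE), Pax3 1441743_at at -0.86 ± 0.32 and Pax9 1442229_at at 0.85 ± 0.54. Over all 5 kept Pax probe sets the limma adjusted p ran from 0.157 to 0.574. Of the 13288 probe sets, 0.0% passed, while 30.1% had an unadjusted p under 0.05 in limma. Pax6 and Pax3 1441743_at were lower on both arrays of the second experiment, and both kept Pax9 probe sets read higher in foregut endoderm 2 than in foregut endoderm 1.

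Genes with the profiles closest to each kept Pax gene were sought among 7802 genes, by the Euclidean distance between log2 values centred on their own mean over the 4 arrays. For Pax9 these were Tmprss2, a transmembrane serine protease, at a distance of 1.21 log2 units, the forkhead factor Foxa1 at 1.69 and Cltrn, the membrane protein collectrin, at 1.96. Tmprss2 read 7.68 and 9.56 in foregut endoderm 1 and 2, against 2.53 and 2.43 in mesoderm and ectoderm 1 and 2. Like Pax9, it was higher in foregut endoderm 2 than in foregut endoderm 1, whereas Foxa1 read 10.92 and 10.82 there.

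For Pax3 the closest were Zic1, a zinc finger factor of the dorsal neural folds, at 0.70, Minar2 at 0.86 and the synaptotagmin gene Syt11 at 0.91. For Pax6 they were the kinase gene Pak3 at 0.39, Minar2 at 0.50 and Syt11 at 0.65. Pak3 read 3.94 and 3.39 in foregut endoderm 1 and 2, against 8.47 and 7.19 in mesoderm and ectoderm 1 and 2. Minar2 and Syt11 were thus among the 3 closest for both Pax3 and Pax6. With only 4 arrays, these distances describe the profiles and carry no test.

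**Figure D3:**
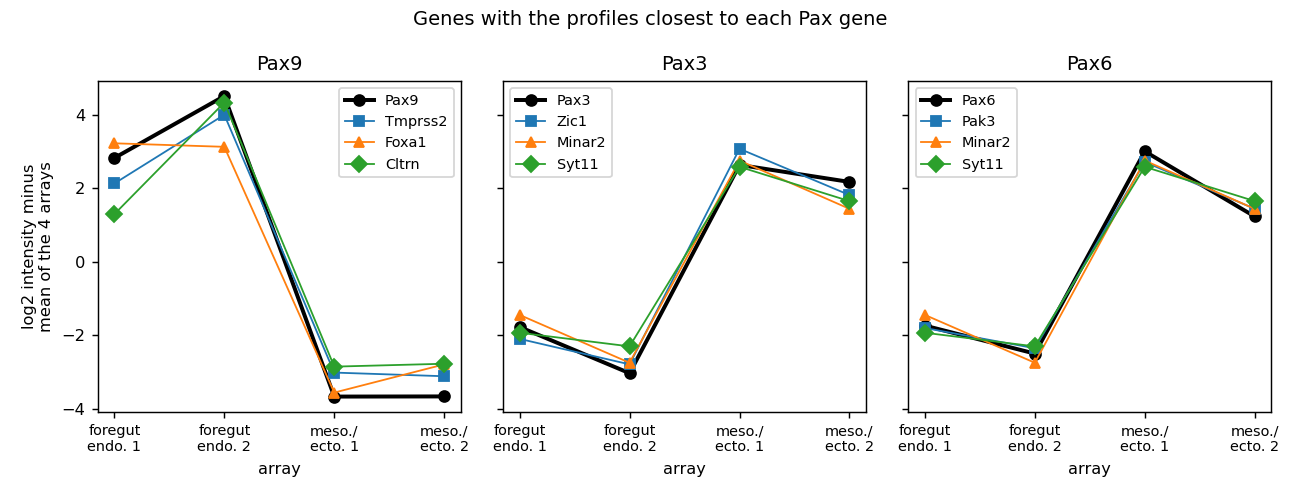
Log2 intensity minus the mean of the 4 arrays (vertical axis) on each array (horizontal axis) for Pax9, Pax3 and Pax6 (black) and the 3 genes closest to each. Pax9 and Tmprss2 are high on both foregut endoderm arrays and highest on the second, and the genes closest to Pax3 and Pax6 peak on the first mesoderm and ectoderm array.

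Genes that share a territory with Pax factors were read from 7 lists, with every gene that had a probe set of its own, whether or not it passed the filter, and its brightest probe set. Among all 18193 such genes of the array, 1.81% were at least 2-fold higher in foregut endoderm in both experiments and 0.654% at least 2-fold lower, with median differences of -0.03 in experiment 1 and -0.02 in experiment 2. Of 17 pharyngeal endoderm regulators, the territory of Pax1 and Pax9, 7 were 2-fold higher in both and 0 lower, with medians of 0.84 and 1.45. Tbx1, a T-box factor of the pharynx, was at 3.21 ± 0.44 (SE), Foxa2 at 3.57 ± 0.51, Isl1, a LIM factor of pharynx and heart field, at 3.58 ± 0.75 and the morphogen Shh at 3.43 ± 0.80.

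Lists of the neural plate went the other way. Of 13 optic and anterior neural plate genes, where Pax6 acts, 8 were 2-fold lower in both and 0 higher, with medians of -2.68 and -2.10. Sp8 was at -5.39 ± 0.73 (SE), Fezf1 at -5.12 ± 0.45, Emx2 at -4.72 ± 0.31 and Six3 at -2.75 ± 0.38, where Emx2 is at the floor on both foregut arrays and Fezf1 on 1. Of 15 dorsal neural plate and neural crest genes, the territory of Pax3 and Pax7, 4 were 2-fold lower in both and 0 higher, with medians of -0.27 and -0.79. Zic1, at the floor in foregut endoderm 2, was at -4.90 ± 0.61 (SE), Zic5 at -2.74 ± 0.46, Zic2 at -2.62 ± 0.55 and Sox10 at -0.94 ± 0.34.

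The midbrain-hindbrain boundary, where Pax2, Pax5 and Pax8 act, gave no direction common to its genes in both experiments. Of its 13 genes, 1 was 2-fold higher in both and 0 lower, with medians of -0.04 and -0.02. The higher one, named here after its values were seen, was Gbx2, a homeobox factor of the anterior hindbrain, at 4.25 and 5.52 in foregut endoderm 1 and 2, against 2.60 and 2.61 in mesoderm and ectoderm 1 and 2. The homeobox gene En2, also named after its values were seen, read 3.04 and 2.96 in foregut endoderm 1 and 2, against 7.97 and 3.85 in mesoderm and ectoderm 1 and 2. Mesoderm and ectoderm 1 alone was bright, on an array where Pax5 and Pax8 were dim. En1 (4.91), Cnpy1 (4.07) and, only just, Fgf18 (2.45) left the floor on that array alone. They too are named after their values were seen, while Wnt1, Fgf8, Fgf17 and Lmx1b were nearly level across the 4 arrays. Otx2, which marks forebrain and midbrain, was at -2.68 and 0.08 in experiments 1 and 2, Sp5 at 0.01 and 2.10, Spry1 at 0.42 and 2.29 and Spry2 at 0.36 and 0.57.

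The remaining lists had few or no genes 2-fold apart in both experiments. Of 13 otic, intermediate mesoderm and kidney genes, 2 were 2-fold higher in both and 0 lower. These were Sall1 (1.43 and 2.09) and, named after its values were seen, the growth factor gene Gdnf (2.07 and 3.89), which was at the floor in mesoderm and ectoderm 1, so that 2.07 is a lower bound. Dlx5 was at -0.73 and -2.16 and Sall4 at -0.13 and 0.34. Of 13 somite and paraxial mesoderm genes, 0 were 2-fold apart with the same sign in both, and Foxc1 was at 1.80 and 0.79.

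Of 12 genes whose proteins bind Pax factors, 0 showed a 2-fold difference in RNA shared by both experiments. The Groucho-type corepressors, which bind a short motif of several Pax proteins, were at 0.06 and 1.02 for Tle1, 0.33 and 0.85 for Tle3 and -0.98 and -0.42 for Tle4. Sox2, a partner of Pax6 in lens cells, was at -1.06 and -0.03. In limma 0 tested genes of the 7 lists had an adjusted p under 0.05, against 0.0% of all probe sets.

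**Figure D4:**
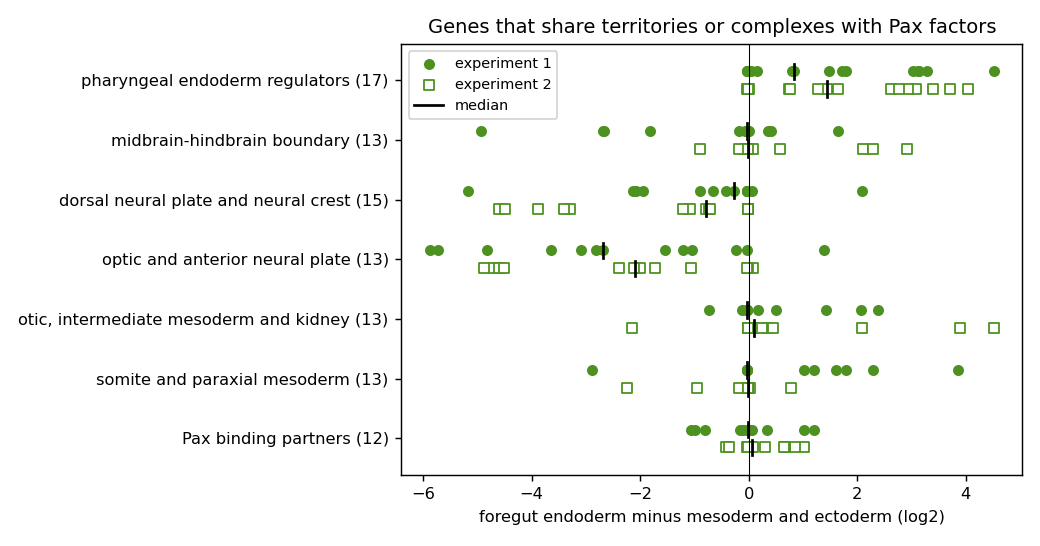
Foregut endoderm minus mesoderm and ectoderm (horizontal axis, log2) for each gene of the 7 lists that had a probe set of its own (rows, with their number), circles for experiment 1, squares for experiment 2 and black bars for medians. Pharyngeal endoderm regulators reach to the right (medians 0.84 and 1.45) and optic and anterior neural plate genes to the left (medians -2.68 and -2.10), with many other genes near 0.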

How the data were processed

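Biotin-labelled RNA of 4 pooled tissue samples, amplified linearly in 2 rounds, was read on MOE430 arrays, per the labels' protocols. For the deposited intensity values the authors used GC-RMA within GenePattern, as the design text says, and RMA is named per the submitters' processing notes. Software versions are not given in the sources. Their linear scale was read from the values. GC-RMA compresses dim probe sets onto a floor, which held 41.4% to 44.8% of an array, so folds against it are lower bounds.

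Here log2 was taken, 64 of 45101 probe sets were left out as controls, and those with a log2 above 5 on at least 2 of 4 arrays were kept (13288). The tissue test was that of limma 3.58.1 (R 4.3.3; two-sided; threshold 0.05 after Benjamini-Hochberg adjustment), with foregut endoderm on top and no block, after a test on simulated data. The sample numbers pair the arrays, because the labels' protocols tie a number to a way of dissection. Deviations from the tissue means correlated at r = 0.56 across probe sets. Nothing in the labels says that the 2 samples of a tissue came from separate litters, so p-values measure only the spread between these samples. The number of arrays limits the precision. Symbols came from GEO's platform annotation, and the 7 genes matched RefSeq (GRCm38.p6) by gene identifier.

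Every Pax probe set is named, with up to 4 genes of smallest p per list and the 3 genes closest in profile to each kept Pax gene. The members and lists were chosen with earlier results of these data known. Alternatives were no filter, a filter at log2 6, the replicate block, quantile normalization, median centring, an offset of 16 before log2, a 4-fold threshold, kept probe sets only and each array left out. The motifs and genomic neighbours were chosen after the values were seen.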

Additional observations from a re-analysis of the deposited data

How the results depend on the processing

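The count of probe sets called between tissues in limma was 0 in every setting run, and the lowest adjusted p ran from 0.0847 without a filter to 1.00 without foregut endoderm 1. With the replicate number as a block the count was also 0 (lowest adjusted p 0.351, limma), with 9.98% of probe sets at an unadjusted p under 0.05, and the block changed no call. Quantile normalization and median centring left 3 Pax probe sets at least 2-fold higher and 4 lower. At 4-fold, 2 were higher and 3 lower, and among kept probe sets the counts were 2 and 3. An offset of 16 shrank dim values by construction: 2 were higher and 4 lower, Pax1 1449359_at was at 0.94, Pax9 1421246_at at 1.49, Pax7 1444596_at at -1.23, Pax3 1420389_at at -1.63 and Pax6 1419271_at at -2.72. With each array left out, Pax9 1442229_at ran from 6.50 to 8.18, Pax1 1449359_at from 1.62 to 2.90, Pax3 1441743_at from -5.44 to -4.18, Pax6 1419271_at from -5.13 to -3.35 and Pax7 1444596_at from -3.03 to -2.22. None of the 7 probe sets at least 2-fold apart in both experiments changed direction in any setting run. They were picked from these same values, and their tissues did not overlap. Leaving out an array could therefore not reverse them, and the unchanged direction is no added evidence. Values at the floor limit what can be said of Pax5, Pax8 and the silent probe sets.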

Other observations

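Genes next to the Pax genes were read as well, taking the 3 protein-coding genes on either side in RefSeq, a choice made after the data were seen. Of 48 neighbours, 44 had a probe set of their own, of which 2 were at least 2-fold higher in foregut endoderm in both experiments and 3 at least 2-fold lower. Among all genes of the array these shares were 1.81% and 0.654%.

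Beside Pax1, the nearest gene on one side was Foxa2, which read 7.52 and 8.61 in foregut endoderm 1 and 2, against 4.40 and 4.58 in mesoderm and ectoderm 1 and 2. On the other side Nkx2-2 and Nkx2-4, homeobox genes of the ventral neural tube and brain, were dim, at most 2.73 for Nkx2-2 (foregut endoderm 1) and at the floor for Nkx2-4. Beside Pax9, Nkx2-1, the homeobox factor of thyroid, lung and forebrain, was at the floor on all 4 arrays, and Nkx2-9 followed the lowest value of each array, at 4.77 and 4.79 against 4.79 and 4.81.

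Beside Pax6, Dnajc24 differed by -1.66 and -1.51 in experiments 1 and 2, Immp1l by -1.09 and -1.59 and Elp4, whose introns hold distant enhancers of Pax6, by -0.73 and -0.83, while Rcn1 on the other side was at 0.25 in both. Beside Pax3, the predicted gene Gm2102 differed by -1.96 and -2.32, in the same direction as Pax3, and the ephrin receptor gene Epha4 by -0.35 and -0.36. Arrdc1 near Pax8, a gene with no signal here, was at 1.98 and 1.43. No test was run on these neighbours as a group.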
